A study of Mus musculus with 8 samples.

Results

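The mitochondrial ribosomal proteins are the 75 genes, of 10453 in the deposited table, whose symbol starts with Mrps or Mrpl followed by a number: 28 Mrps genes and 47 Mrpl genes. They were chosen by name and by no measured value. The study profiled B16 cells, a mouse melanoma line, in which Mettl5 had been edited with CRISPR/Cas9 (KO), and unedited B16 cells (WT). METTL5 is the enzyme that methylates an adenosine of the 18S rRNA of cytosolic ribosomes. There were 4 groups of 2 libraries: KO input RNA, WT input RNA, KO ribosome footprints and WT ribosome footprints. All cells received cycloheximide, which stalls cytosolic ribosomes on mRNA, before lysis. The labels do not say whether the KO cells were 1 clone, or whether the 2 libraries of a group came from separate cultures, so p-values reflect only how far these libraries spread, possibly for technical reasons. The labels also name the input both as polyadenylated and as rRNA-depleted RNA.

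Mitochondrial ribosomal proteins build the ribosome that works inside mitochondria, where it makes the few respiratory chain subunits encoded in mitochondrial DNA. All of these proteins are encoded in the nucleus, translated on cytosolic ribosomes and imported, so their footprints report cytosolic translation. By convention Mrps symbols name proteins of the small subunit, which decodes mRNA, and Mrpl symbols those of the large subunit, which forms peptide bonds. Part of the set descends from bacterial ribosomal proteins and part is specific to mitochondria. Mrps30 and Mrps18a carry small subunit names but sit in the large subunit. By structure the members therefore fall into 49 large and 26 small subunit proteins, and by descent into 45 with a bacterial counterpart and 30 specific to mitochondria.

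Recovered reads ranged from 11927567 to 18823632 over the input libraries and from 2279456 to 3098930 over the footprint libraries. For the median member this came to 589 to 903 reads of input and 125 to 181 reads of footprints per library, so footprint changes were measured less precisely. Mettl5 itself had a mean of 85.7 ± 14.1 normalized reads in KO input and 112.3 ± 2.51 in WT input (SD, n = 2; log2 fold change -0.40, adjusted p = 0.00162). Its footprints averaged 110.4 in KO and 101.9 in WT (0.12, adjusted p = 0.812), and its translational efficiency differed by 0.52 (adjusted p = 0.216), so its mean footprint level in KO was not below that in WT. A small edit of the gene would not be visible in such counts. All 7 melanocyte markers examined were among the listed genes (Pmel at 16877 normalized reads in KO input and 13701 in WT input). Of fibroblast, leukocyte, endothelial and epithelial markers, 6 of 14 were listed, none above 38.3 normalized reads in a mean of input libraries.

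The promoters of 4 members illustrate the regions upstream of genes called in translational efficiency, KO against WT, as described below. Mrps24 (ENSMUSG00000020477.10) had the smallest p for a rise in input. Mrps22 (ENSMUSG00000032459.9) was the 1 member lower in input and higher in translational efficiency. Mrpl20 (ENSMUSG00000029066.12) and Mrps25 (ENSMUSG00000014551.8) had the smallest p among members lower in translational efficiency. Sequences are from RefSeq (build GRCm38.p6, read 5′ to 3′ along the gene) and run from 200 bases before to 30 bases after the annotated start. They lie at chr11:5707672-5707901 (minus strand), chr9:98601650-98601879 (minus strand), chr4:155802678-155802907 (plus strand) and chr6:92183994-92184223 (minus strand). Capitals mark matches, on either strand, to the letters CCGGAA (the core that ETS-family factors such as GABP bind), GCATGCGC (the core bound by NRF1) or TATAAA (the TATA box).
Mrps24: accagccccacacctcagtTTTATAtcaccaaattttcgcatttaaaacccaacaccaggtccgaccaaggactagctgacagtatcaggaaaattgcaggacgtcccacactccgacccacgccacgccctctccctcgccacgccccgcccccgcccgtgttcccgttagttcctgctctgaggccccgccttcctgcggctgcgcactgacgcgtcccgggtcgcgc
Mrps22: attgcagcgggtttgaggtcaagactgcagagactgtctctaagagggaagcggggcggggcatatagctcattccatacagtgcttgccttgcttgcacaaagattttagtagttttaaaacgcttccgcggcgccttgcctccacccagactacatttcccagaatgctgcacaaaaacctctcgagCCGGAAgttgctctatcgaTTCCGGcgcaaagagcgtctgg
Mrpl20: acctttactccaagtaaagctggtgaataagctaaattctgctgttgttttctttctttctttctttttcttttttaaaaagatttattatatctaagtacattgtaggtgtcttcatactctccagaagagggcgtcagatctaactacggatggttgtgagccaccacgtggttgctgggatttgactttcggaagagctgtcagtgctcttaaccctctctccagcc
Mrps25: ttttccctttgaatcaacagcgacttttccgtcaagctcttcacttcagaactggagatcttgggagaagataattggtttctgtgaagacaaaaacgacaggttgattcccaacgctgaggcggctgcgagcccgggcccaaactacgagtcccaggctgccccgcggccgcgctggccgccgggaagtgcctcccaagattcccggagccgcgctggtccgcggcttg
The Mrps24 stretch held 1 match, to TATAAA at position -181 counted from the start. The Mrps22 stretch held 2 matches to CCGGAA, at -11 and at 9, and the other 2 stretches held 0.

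Promoter windows of 250 bases before to 50 after the start were found for 66 of the 75 members. CCGGAA occurred in 39 of these 66 (59.1%), in 34.2% of the 8289 genes of the deposited table that had a window, and in 16.7% of all 27025 genes with one. The share was 15 of 25 Mrps genes and 24 of 41 Mrpl genes. It was 8 of the 15 members with a window that were higher in KO input and 31 of the other 51. Among the 5 members with a window that were lower in translational efficiency it was 0. GCATGCGC occurred in 8 of 66 members (6.62% of genes in the table) and TATAAA in 5 (7.75%). None of the 66 members began, at the annotated start, with C and 4 further pyrimidines, the mark of TOP mRNAs such as those of cytosolic ribosomal proteins. The mark was found in only 8 of 46 cytosolic ribosomal protein genes (17.4%) and in 2.92% of genes in the table. Annotated starts therefore miss it in many TOP mRNAs, and a count of 0 does not show that the members lack it. A match is a count of letters, not a bound site.

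In input RNA, which asks whether mRNA levels differ between the genotypes, mitochondrial ribosomal protein genes were called higher in KO far more often than lower. Of 75 members, 20 rose and 1 fell (26.7% and 1.33%). Over all 10443 genes tested, 17.9% rose and 18.6% fell. Among Mrps genes 5 of 28 rose (17.9%, the same share as of all genes) and 1 fell (3.57%). Among Mrpl genes 15 of 47 rose (31.9%) and 0 fell. The changes were small: the median log2 change was 0.056 for Mrps and 0.069 for Mrpl genes, against 0.0022 for all genes tested, and the members ranged from -0.17 to 0.28. Of the members with a bacterial counterpart, 16 of 45 rose (35.6%) and 0 fell. Of those specific to mitochondria, 4 of 30 rose (13.3%, below the share of all genes) and 1 fell (3.33%).

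Summed over its members, each name family showed the same order of the genotypes in input. The Mrps genes summed to 8056 and 8204 normalized reads in the KO input libraries, against 7889 and 7941 in the WT input libraries. The Mrpl genes summed to 16450 and 16688 in KO input, against 15894 and 15843 in WT input. Both KO sums lay above both WT sums for each family. The median log2 values of the members, by contrast, overlapped between genotypes. For Mrps genes they were 8.07 and 8.13 in KO and 8.09 and 8.08 in WT. For Mrpl genes they were 8.18 and 8.23 in KO and 8.13 and 8.20 in WT. The ratio of the Mrps to the Mrpl sum was 0.49 and 0.492 in KO input and 0.496 and 0.501 in WT input.

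Among small subunit genes, Mrps24 rose most. It encodes a counterpart of a bacterial protein of the mRNA entry side. Its input was 446.5 and 438.8 normalized reads in KO, against 366.3 and 367.9 in WT (log2 fold change 0.27 ± 0.045 (SE), adjusted p = 6.43e-06). The call held in all 15 alternatives. Mrps11, which encodes a protein of the small subunit platform, had 263.4 and 263.8 normalized reads in KO and 222.7 and 216.8 in WT. Its log2 fold change was 0.26 ± 0.058 (adjusted p = 0.000412), and the call was lost in 1 alternative, with input and footprint libraries fitted together (adjusted p between 0.000121 and 0.11 over the alternatives). Mrps12, a protein of the decoding centre, rose by 0.18 (adjusted p = 0.0316). Mrps15 (0.15) and Mrps34 (0.13) were the other small subunit genes that rose.

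Mrps22, a small subunit protein specific to mitochondria, was the 1 member that fell. It had 264.7 and 255.2 normalized reads in KO input, against 274.1 and 307.6 in WT input (log2 fold change -0.16 ± 0.058, adjusted p = 0.0276). The WT libraries differed from each other by more than the nearest KO and WT libraries did. The input call of Mrps22 held in 10 of 15 alternatives. It was lost without limma's trend, with DESeq2 and with both kinds of library fitted together. It was also lost without WT input replicate 2 and without KO input replicate 2.

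Among large subunit genes, the largest rise was that of Mrpl14, whose protein binds the assembly factor MALSU1. Its input was 175.7 and 186.8 normalized reads in KO and 141.3 and 156.4 in WT (log2 fold change 0.28 ± 0.073, adjusted p = 0.00208). Mrpl54, specific to mitochondria, followed with 224.8 and 234.5 normalized reads in KO and 198.3 and 185.4 in WT (0.26 ± 0.064, adjusted p = 0.00127). Mrpl4, a protein lining the peptide exit tunnel, had 423.8 and 402.5 in KO and 344.8 and 377.6 in WT (0.19 ± 0.049, adjusted p = 0.00157). Mrpl48 had 477.5 and 469.3 in KO and 419.4 and 415.2 in WT (0.18 ± 0.043, adjusted p = 0.000819). KO and WT libraries did not overlap for any of these 4 genes, as for all 20 members called higher in input, so this adds no support. Each of the 4 calls was lost without limma's trend, with DESeq2 and with both kinds of library fitted together. That of Mrpl14 was also lost without KO input replicate 2, and that of Mrpl4 without WT input replicate 1. The adjusted p reached 0.244 for Mrpl14, 0.186 for Mrpl54, 0.128 for Mrpl4 and 0.489 for Mrpl48. The other 11 Mrpl genes that rose had log2 fold changes between 0.069 (Mrpl12) and 0.17 (Mrpl36). Mrpl14 and Mrpl48 overlap other genes in the annotation (Tmem63b, and Rab6a and Cox20b), and Mrpl48 has a named pseudogene, so their reads may be shared.

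The count of 20 rising members changed with the test and with 1 library. It was 2 when limma modelled no trend between variance and level (6.06% of all genes rose there), 3 with DESeq2 on the recovered reads (7.8%) and 2 with input and footprint libraries fitted together (4.24%). With edgeR it was 20 again (17.9%). Without KO input replicate 2 it was 8 (2 Mrps and 6 Mrpl), where 12.9% of all genes rose, so the members' share was then below that of all genes. The Mrps count was 3 without KO input replicate 1 and 3 without WT input replicate 1.

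**Figure D1:**
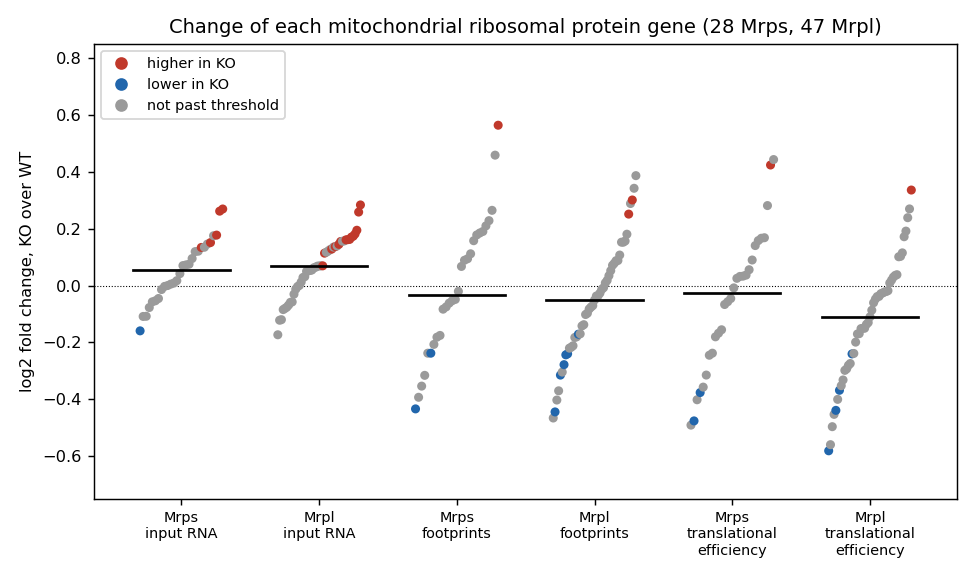
Log2 fold change (KO over WT) of each of the 28 Mrps and 47 Mrpl genes in input RNA, footprints and translational efficiency, 1 point a gene, sorted within each column; red and blue points passed an adjusted p of 0.05 and black lines are medians. In input the called genes lie almost all above 0 (20 higher, 1 lower), while in footprints (3 higher, 8 lower) and translational efficiency (2 higher, 6 lower) more lie below 0.

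In footprints, which count cytosolic ribosomes on each mRNA, more members fell than rose. Of 75 members, 3 rose and 8 fell (4.0% and 10.7%), where 6.3% of all 10453 genes tested rose and 6.22% fell. Among Mrps genes 1 of 28 rose and 2 fell. Among Mrpl genes 2 of 47 rose and 6 fell. The median log2 change was -0.035 for Mrps and -0.051 for Mrpl genes, against 0.0047 for all genes tested. Of the 20 members that rose in input, 0 were called higher in footprints and 3 were called lower (Mrpl12, Mrpl20 and Mrpl38). Over all genes that rose in input these shares were not computed, so the counts are no separate result about the members.

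The summed footprints of each family were lower in KO. The Mrps genes summed to 12418 and 12651 normalized reads in the KO footprint libraries, against 12846 and 12969 in the WT footprint libraries. The Mrpl genes summed to 26141 and 26481 in KO, against 27654 and 27239 in WT. Both KO sums lay below both WT sums in each family, the reverse of the input sums. The ratio of the Mrps to the Mrpl sum was 0.475 and 0.478 in KO footprints and 0.465 and 0.476 in WT footprints.

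Mrps25, specific to mitochondria, fell with the smallest p of the members. Its footprints were 777.0 and 818.2 normalized reads in KO, against 1072.4 and 1082.8 in WT (log2 fold change -0.43 ± 0.075, adjusted p = 0.000178). These are 549 reads in KO and 977 in WT over both libraries. Without limma's trend the adjusted p was 0.202, and in the other 14 alternatives the call held, the lowest being 1.05e-06. Mrps25 overlaps Nr2c2 in the annotation. Mrps23 also fell (-0.24 ± 0.071, adjusted p = 0.0257).

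Mrpl38, a large subunit protein specific to mitochondria, had 385.6 and 369.2 normalized footprint reads in KO and 532.0 and 496.6 in WT (log2 fold change -0.44 ± 0.11, adjusted p = 0.0068). Mrpl20, which has a bacterial counterpart, had 1328.3 and 1352.9 in KO and 1606.5 and 1646.1 in WT (-0.28 ± 0.059, adjusted p = 0.00188). Mrpl9 fell by 0.32 (adjusted p = 0.0123). Mrpl43 fell by 0.24 (adjusted p = 0.0184), and it overlaps Twnk, the gene of the mitochondrial DNA helicase. Mrpl58, a peptidyl-tRNA hydrolase that frees stalled mitochondrial ribosomes, fell by 0.24 (adjusted p = 0.02). Mrpl12, the stalk protein that in human cells also binds the mitochondrial RNA polymerase, fell by 0.17 (adjusted p = 0.0255). Of 15 alternatives, the footprint call held in 13 for Mrpl20, 12 for Mrpl38, 12 for Mrpl9, 11 for Mrpl43 and 10 for Mrpl58. Those lost included leaving out WT footprint replicate 1 (Mrpl38, Mrpl43 and Mrpl58), WT footprint replicate 2 (Mrpl9 and Mrpl58) and KO footprint replicate 1 (Mrpl58). The neighbours of Mrpl12 at the stalk did not pass: the log2 fold change was -0.40 ± 0.18 for Mrpl11 (adjusted p = 0.176; efficiency -0.56, adjusted p = 0.0505) and -0.083 ± 0.16 for Mrpl10 (adjusted p = 0.816).

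The 3 members with more footprints in KO were 1 small and 2 large subunit genes. Mrps21 had 305.7 and 292.4 normalized reads in KO, against 199.2 and 204.6 in WT (log2 fold change 0.56 ± 0.15, adjusted p = 0.0113). Mrpl44, which has the fold of an RNase III, had 714.2 and 676.4 in KO and 544.7 and 583.9 in WT (0.30 ± 0.092, adjusted p = 0.0308). Mrpl19 had 982.7 and 995.4 in KO and 845.6 and 816.1 in WT (0.25 ± 0.075, adjusted p = 0.0273). KO and WT libraries did not overlap for any of the 3, as for every member called in footprints, so this adds no support. Each of these calls was lost without WT footprint replicate 1 and without WT footprint replicate 2, where 0 members rose and 3 and 4 fell. Of all genes, 4.12% and 4.19% rose and 3.6% and 3.35% fell in these fits. DESeq2 called 0 members higher and 1 lower (4.55% and 4.32% of the genes to which it gave an adjusted p), and without limma's trend no gene of the table was called.

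Translational efficiency, the change in footprints relative to the change in input, asks whether ribosome occupancy per mRNA differs between the genotypes. Of 75 members, 2 rose and 6 fell (2.67% and 8.0%), where 5.11% of all 10443 genes tested rose and 4.66% fell. Among Mrps genes 1 of 28 rose and 2 fell. Among Mrpl genes 1 of 47 rose and 4 fell. The median log2 change was -0.027 for Mrps and -0.11 for Mrpl genes, against 0.0050 for all genes tested. Below 0 lay 15 of 28 Mrps and 34 of 47 Mrpl genes, called or not. Whether the 2 families differ was not tested, since genes of a family are not replicates. Of the 20 members that rose in input, 16 had a log2 change of efficiency below 0. Efficiency subtracts the input change, so choosing members by a rise in input lowers it by itself. The count is therefore no separate result, and the same share over all genes that rose in input was not computed.

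Mrpl38 fell most in translational efficiency (log2 fold change -0.58 ± 0.10, adjusted p = 0.00711). Its input was 345.6 and 368.1 normalized reads in KO and 318.0 and 330.7 in WT, so it was higher in input and lower in footprints. Mrps24 fell by 0.48 (adjusted p = 0.00879). Its footprints, 879.8 and 815.3 in KO and 1019.4 and 938.0 in WT, did not pass alone (-0.21 ± 0.078, adjusted p = 0.087). Mrpl20 fell by 0.44 (adjusted p = 0.00299), with input of 383.7 and 388.4 in KO and 345.2 and 345.2 in WT. Mrps25 fell by 0.38 (adjusted p = 0.0062), and here the input, 849.2 and 820.2 in KO and 867.9 and 869.1 in WT, did not pass (-0.057, adjusted p = 0.17). Mrpl24, a protein at the exit tunnel (-0.37, adjusted p = 0.0485), and Mrpl12 (-0.24, adjusted p = 0.0285) were the other members that fell. The Mrpl24 call held in 10 of 18 alternatives, and was lost with the replicate block, with DESeq2, without limma's trend and without any of 5 single libraries (adjusted p up to 0.222). The Mrpl12 call held in 11 of 18, lost without limma's trend and without any of 6 single libraries (up to 0.18).

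Of the 2 members that rose in translational efficiency, 1 had also fallen in input. Mrps22 rose by 0.42 (adjusted p = 0.0352), with footprints of 651.3 and 688.2 normalized reads in KO and 548.9 and 565.6 in WT. Mrpl19 rose by 0.34 (adjusted p = 0.0127), with input of 693.4 and 728.8 in KO and 757.0 and 750.8 in WT (-0.085, adjusted p = 0.0548). For Mrps22, 7 of 18 alternatives lost the call (adjusted p up to 0.178), among them leaving out any of 6 single libraries. The Mrpl19 call held in 14 of 18, lost without limma's trend and without KO input replicate 1, WT input replicate 1 or WT input replicate 2 (up to 0.0888). The calls of Mrpl38 and Mrps24 held in 16 each, lost without limma's trend and without 1 KO input library (replicate 2 for Mrpl38, replicate 1 for Mrps24). Those of Mrpl20 and Mrps25 held in 17 each, lost without limma's trend (adjusted p = 0.0567 and 0.0761).

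Without limma's trend, 0 members rose and 0 fell in translational efficiency (0.46% and 0.814% of all genes), while edgeR called 3 higher and 15 lower (6.25% and 6.75%). The 6 falling members were 3 without KO input replicate 1 or replicate 2, where 2.15% and 2.04% of all genes fell. They were 10 without KO footprint replicate 1 or replicate 2, where 8.32% and 8.3% of all genes fell. The 2 rising members were 0 without KO input replicate 1 or WT input replicate 2 (1.87% and 1.92% of all genes rose). They were 1 without KO input replicate 2, WT input replicate 1 or WT footprint replicate 1 (2.06%, 2.03% and 6.23%). In the authors' deposited table, 1 member (Mrpl38, log2 fold change -0.58, adjusted p = 0.00138) was called Down and 0 were called Up, and 7 members had an adjusted p of at most 0.05.

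**Figure D2:**
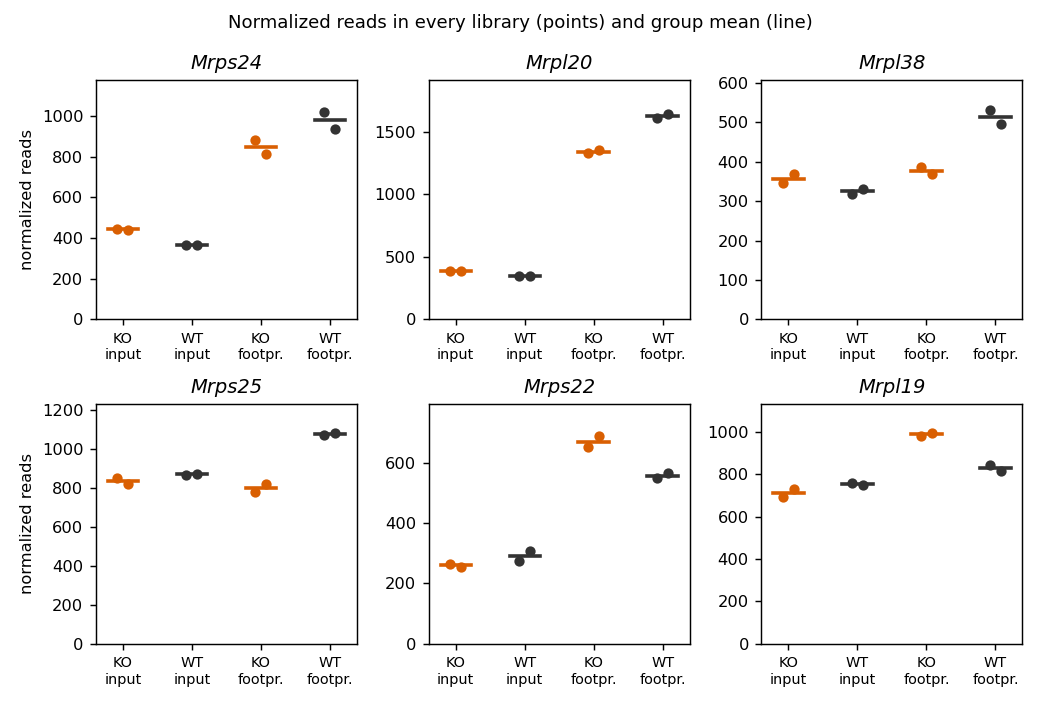
Normalized reads (y axes start at 0) of 6 members in every library, points, with the mean of each group as a line; KO in orange and WT in black, input on the left and footprints on the right of each panel. Mrps24, Mrpl20 and Mrpl38 are higher in KO input and lower in KO footprints, Mrps25 is lower in KO footprints, and for Mrps22 and Mrpl19 both KO libraries lie below both WT libraries in input and above them in footprints.

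**Figure D3:**
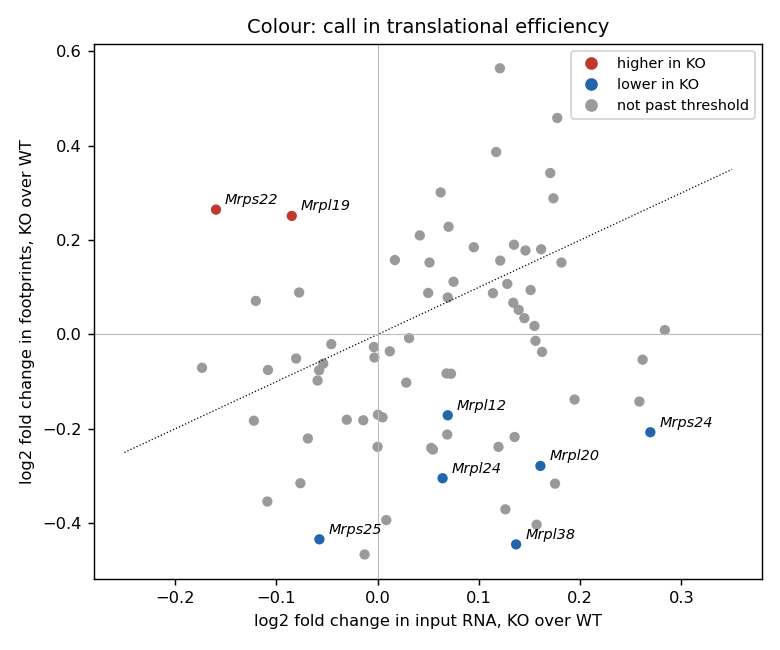
Log2 fold change (KO over WT) in footprints against that in input RNA for the 75 members, with the dotted line marking equal change. The 6 members lower in translational efficiency (blue) lie below the line and the 2 higher ones (red) lie above it. In none of the 3 comparisons passed 45 of the 75 members, and the same share over all genes was not computed. In input alone, 54 of 75 members and 6640 of all 10443 genes tested did not pass.

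Within a genotype, the ratio of footprints to input is an indirect measure of how many ribosomes an mRNA carries relative to other genes. It also depends on how well each kind of library captured a gene, which was not tested. The scaling of the table puts the median gene near a log2 ratio of 0 (-0.014 in KO and -0.0049 in WT). Mitochondrial ribosomal protein genes lay above it in both genotypes. In KO, 45 of 75 members were higher in footprints than in input and 20 were lower (60.0% and 26.7%), where 39.1% of all genes were higher and 38.6% lower. In WT, 50 were higher and 18 lower (66.7% of members higher), where 39.1% of all genes were higher and 39.3% lower. The same direction was called in both genotypes for 62 of the 75 members. The share over all genes was not computed, so this count is not a trait of the members. Levels of different genes were not compared with each other, because coding lengths were not used here. In the ratio, length enters both terms. It need not cancel, because whether reads outside the coding part were counted is not given.

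Mrps and Mrpl genes had near shares in this ratio. In KO, 17 of 28 Mrps and 28 of 47 Mrpl genes were higher (60.7% and 59.6%). In WT these were 19 of 28 and 31 of 47 (67.9% and 66.0%). The median log2 ratio of Mrps genes was 0.67 in KO and 0.70 in WT. That of Mrpl genes was 0.42 in KO and 0.54 in WT. Setting each footprint library against each input library of its genotype, the Mrpl median ranged from 0.32 to 0.45 in KO and from 0.52 to 0.61 in WT, without overlap. The Mrps median ranged from 0.58 to 0.67 in KO and from 0.63 to 0.70 in WT, with overlap. These combinations reuse the same 4 libraries of a genotype and are not independent.

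The split by descent was wider than the split by name. Of the 30 members specific to mitochondria, 22 in KO and 25 in WT were higher in footprints than in input, and 5 were lower in each genotype (median log2 ratio 0.75 in KO and 0.91 in WT). Of the 45 with a bacterial counterpart, 23 in KO and 25 in WT were higher, and 15 and 13 were lower (0.40 and 0.42). Within Mrps genes, 9 of 12 in KO and 11 of 12 in WT were higher among those specific to mitochondria, and 8 of 16 in each genotype among those with a counterpart. Within Mrpl genes the shares were closer: 13 of 18 in KO and 14 of 18 in WT were higher among those specific to mitochondria, and 15 of 29 in KO and 17 of 29 in WT among those with a counterpart. Of these Mrpl genes, 22.2% of those specific to mitochondria were lower in each genotype, and 27.6% in KO and 20.7% in WT of those with a counterpart.

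Single members covered a wide range. Mrps18c, 1 of 3 paralogs related to a bacterial small subunit protein and the 1 counted here as its counterpart, had the highest ratio (log2 4.04 ± 0.13 in KO and 4.20 ± 0.13 in WT). Its input was 42.6 and 34.8 normalized reads in KO and 35.5 and 37.7 in WT. Its footprints were 617.0 and 682.3 in KO and 674.0 and 701.2 in WT. The paralogs Mrps18a (1.22 in KO, 1.13 in WT) and Mrps18b (0.36 in KO, 0.31 in WT) lay lower, and the authors' counting could have split reads between paralogs. Mrps30, the other large subunit protein with a small subunit name, had a ratio of 0.99 in KO and 0.96 in WT.

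Next highest in WT were Mrpl50 (2.95 in KO, 2.92 in WT), Mrpl43 (1.94 and 2.24), Mrpl20 (1.79 and 2.23) and Mrpl58 (1.80 and 2.10). At the other end stood Mrps33 (-3.95 in KO, -3.90 in WT), with 8 footprint reads over both KO libraries and 11 over both WT libraries, although its input was 188.5 normalized reads in KO and 188.9 in WT. Mrps12 (-1.74 in KO, -2.02 in WT), Mrpl36 (-1.84, -1.96), Mrpl48 (-1.74, -1.71) and Mrpl42 (-1.42, -1.69) were the next lowest in WT. Mrps33, Mrps12, Mrps16, Mrpl22 and Mrpl55 had under 20 footprint reads in at least 1 library. A difference between genotypes of the size called elsewhere was not detectable for Mrps33 at this depth (log2 fold change in footprints -0.049 ± 0.58).

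The order of the members was kept between genotypes. Over the 75 members, the log2 ratios in KO and in WT had a Pearson r of 0.984 and a Spearman rho of 0.966. The same r over all 10443 genes was 0.961. These are descriptions across genes, which share their sequence and scaling in both genotypes.

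**Figure D4:**
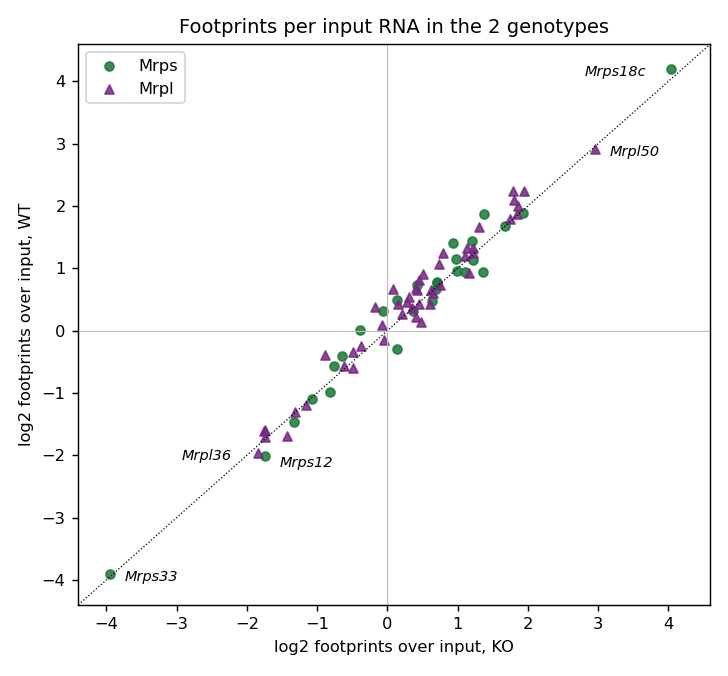
Log2 ratio of footprints to input of each member in KO (x axis) and WT (y axis), with Mrps genes as green circles and Mrpl genes as purple triangles; the dotted line marks equal ratios. The members span about the same range in both genotypes, from Mrps33 (-3.95 in KO, -3.90 in WT) to Mrps18c (4.04 in KO, 4.20 in WT), and both families spread along the line.

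Proteins of the mitochondrial ribosome that carry other names did not move as 1 group. Of 5 measured, 2 rose and 1 fell in input, where 17.9% of all genes rose and 18.6% fell. Gadd45gip1 (0.50 ± 0.032, adjusted p = 6.81e-16) and Aurkaip1 (0.21, adjusted p = 0.00597) rose, and Ptcd3 fell (-0.31, adjusted p = 4.2e-10). In footprints Gadd45gip1 rose by 0.50 (adjusted p = 0.000208) and Chchd1, a small subunit protein, fell by 0.56 (adjusted p = 0.00258). Chchd1 had 302.4 normalized footprint reads on average in KO and 444.9 in WT. In translational efficiency Chchd1 fell by 0.72 (adjusted p = 0.00904) and Ptcd3, a small subunit protein with RNA-binding repeats, rose by 0.29 (adjusted p = 0.0124). Dap3, a GTP-binding protein of the small subunit, passed in none of the 3.

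Factors that assemble or serve the mitochondrial ribosome were called at shares near or below those of all genes. Of 30 assembly and rRNA factors, 3 rose and 0 fell in input (10.0% and 0.0%, against 17.9% and 18.6% of all genes). These were Mtg2, a GTPase of large subunit assembly (0.39), Mpv17l2 (0.34) and Trub2 (0.13). In footprints 2 rose and 0 fell (6.67% and 0.0%, against 6.3% and 6.22% of all genes). They were Mrm3, which methylates mitochondrial rRNA (0.54, adjusted p = 0.00903), and Lrpprc, which stabilises mitochondrial mRNAs (0.31, adjusted p = 8.44e-05). Lrpprc was the 1 that rose in translational efficiency (0.31, adjusted p = 0.012), or 3.33% of the list against 5.11% of all genes. Of 15 mitochondrial translation factors, 2 rose and 2 fell in input (13.3% each). Mtif3 (0.18) and Tufm, the elongation factor (0.15), were higher, and Gfm2 (-0.15) and 2810006K23Rik (-0.28) were lower. Of the 15, 0 passed in footprints or efficiency. Of the 4 transcription factors and polymerase genes of mitochondria, 0 passed in any.

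Cytosolic ribosomal proteins, the nearest comparable set, differed most in the ratio. Of 59 in KO, 6 were higher in footprints than in input and 52 lower (10.2% and 88.1%, against 39.1% and 38.6% of all genes). In WT, 7 were higher and 52 lower (11.9% and 88.1%, against 39.1% and 39.3%). The median log2 ratio was -3.40 in KO and -3.41 in WT. In input 56 of them rose in KO and 1 fell, with a median log2 change of 0.16. In footprints 16 rose and 5 fell, and in translational efficiency 10 rose and 13 fell. Cytosolic ribosomal protein genes have many pseudogenes, with which reads may be shared. Single genes differed widely: Rpl13 had 4609.7 normalized reads in KO input and 4.38 in KO footprints, while Rpl8 had a log2 ratio of 1.37 in KO. A low ratio therefore need not mean few ribosomes per mRNA, and the reason was not tested. The difference between the sets was not tested.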

How the data were processed

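RNA and ribosome footprints were measured in 8 libraries. Per the submitters' processing notes, Bowtie and mm10 were used. How reads were counted, and by strand or not, is not given in the sources used here. In all, 24 members overlap another gene in the RefSeq annotation. The authors deposited normalized read counts per gene, treated here as signal, and 100% of values came out as whole reads within 0.001. Per the file headers, the authors' table further gives, for translational efficiency, log2 fold changes, p-values (raw and adjusted) and calls of Up or Down. Tests used limma 3.58.1 (R 4.3.3) with a variance trend on log2(value + 1). Genes needed a mean of 1 or more, and all 75 members passed. Input and footprints were fitted alone. Translational efficiency (the interaction) and the ratio within a genotype came from 1 fit over 8 libraries with 1 variance per gene, so errors may be too small for members with few footprint reads. Tests were two-sided, with Benjamini-Hochberg adjustment over all genes (threshold 0.05). The log2(value + 1) scale understates the change of low genes. The raw-count test planned first was replaced because the table is normalized. edgeR 4.0.16 and DESeq2 1.42.0 on recovered reads, other pseudocounts, filters, centring, a replicate block and leaving out each library were alternatives. The fits were tested on simulated data in which the changed genes moved by more than any member called between the genotypes. That test therefore does not show how well changes as small as those of the members are recovered. Members and lists were chosen with earlier results of these data known. Named members are the called members with the largest changes (up to 6 a direction), the extremes of the ratio, those with under 20 reads and the Mrps18 paralogs and Mrps30. Called members also needed libraries without overlap between genotypes, which every member called between KO and WT had. The other called members, Mrpl10, Mrpl11 and the factors were named after their values were seen. Levels per codon were not used here.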

Additional observations from a re-analysis of the deposited data

How the results depend on the processing

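The footprint to input ratio counts kept within 1.5 times under every alternative run, and leaving out 1 library gave 42 to 47 members higher and 20 lower in KO, and 47 to 51 higher and 17 to 19 lower in WT. Centring each library on its median moved the median of all genes by 0.22 in each genotype, and the Mrps median to 0.88 in KO and 0.92 in WT and the Mrpl median to 0.63 in KO and 0.77 in WT. A filter at a mean of 20 gave an Mrps median of 0.73 in WT. Leaving out 1 library gave Mrps medians of 0.62 to 0.70 in KO and 0.64 to 0.71 in WT, and Mrpl medians of 0.30 to 0.47 in KO and 0.54 to 0.59 in WT.

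In input, members higher and lower were 2 and 0 without limma's trend (6.06% and 6.16% of all genes) and 3 and 0 with DESeq2 (7.8% and 8.67%). With both kinds of library fitted together they were 2 and 0 (4.24% and 3.7%). They were 17 and 2 with centring (17.1% and 19.1%), and 20 and 3 with edgeR (17.9% and 18.9%). Leaving out 1 library gave 8 to 19 higher and 1 to 2 lower. In footprints the members higher and lower were 0 and 0 without the trend (0.0% of all genes each way) and 0 and 1 with DESeq2 (4.55% and 4.32%). Fitted together they were 5 and 13 (11.6% and 10.6%). Leaving out 1 library gave 0 to 4 higher and 3 to 8 lower. In translational efficiency the members higher and lower were 0 and 0 without the trend (0.46% and 0.814% of all genes). The lower count was 10 with centring (5.06%), 10 at a minimum of 20 reads (7.03%) and 15 with edgeR (6.75%). Leaving out 1 library gave 0 to 2 higher and 3 to 10 lower. The cause of these shifts was not tested. Leave-one-out medians of the KO against WT change were 0.028 to 0.071 (Mrps) and 0.057 to 0.086 (Mrpl) in input, -0.067 to -0.010 and -0.14 to -0.083 in translational efficiency, and -0.046 to 0.028 and -0.085 to -0.022 in footprints. The Mrps footprint median reversed to 0.024 without WT footprint replicate 1 and to 0.028 without KO footprint replicate 1.

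The replicate numbers did not pair the libraries (correlation of deviations between -0.029 and 0.0075). With a replicate block, 21 members rose and 1 fell in input (18.3% and 18.8% of all genes). In footprints 4 rose and 9 fell (7.53% and 7.28%), and in translational efficiency 2 rose and 5 fell (5.34% and 4.86%). Pseudocounts of 0.5 and 5 and no filter moved no count by over 1.5 times. Members with few footprint reads could show large changes only.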
